A study of Mus musculus with 8 samples.

Results

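The replication-dependent histone genes were followed in LLC1 cells 4 h after X-rays. They were taken as every gene whose array symbol starts with Hist1h, Hist2h, Hist3h or Hist4h, which gave 38 symbols on 45 probes. Of these, 30 symbols on 35 probes lay above the negative controls in at least 1 channel on 2 or more of the 8 arrays and were tested, among 13409 genes tested in all. LLC1 is a Lewis lung carcinoma line of C57BL/6 mouse lung cancer. Every array compared untreated cells, labelled with Cy3, with irradiated cells, labelled with Cy5, and no array had the dyes exchanged. Irradiated cells had received 2 Gy at once (3 arrays), 10 Gy at once (2 arrays), or 10 Gy split into 5 fractions of 2 Gy (3 arrays), written 5x2 Gy. All cells came from this 1 line in culture, so no group stands for a tumour in an animal.

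Replication-dependent histone genes encode the linker histone H1 and the core histones H2A, H2B, H3 and H4 that package newly made DNA, and cells express them mainly in S phase. Their messages end in a stem-loop bound by Slbp, the stem-loop binding protein, instead of a poly(A) tail, and their transcription depends on Npat, a substrate of cyclin E and its kinase. Replacement histones, encoded elsewhere in the genome, are made throughout the cell cycle with polyadenylated messages. Per the labels the RNA was amplified with a MessageAmp aRNA kit. Such kits prime on poly(A) tails, and how this weighs messages with and without a tail was not tested.

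All 2 Gy arrays shared slide 1 with 10 Gy replicate 1, and all 5x2 Gy arrays shared slide 2 with the other 10 Gy array, so 2 Gy and 5x2 Gy never shared a slide and any slide term for them rests on the 10 Gy arrays alone. By array and channel, 34.7% to 49.1% of probes exceeded background. The untreated cells showed the epithelial markers Krt8, Krt18 and Krt19 and the mesenchymal Vim, Cdh2 and S100a4 on all 8 arrays, while Epcam and Cdh1 were above background on none. Of 5 leukocyte markers 1, Cd3e, was above background in all untreated samples, and none of 3 endothelial or 3 fibroblast markers was. The fibroblast markers Col1a1, Col1a2 and Pdgfra were above background on up to 7, 4 and 3 untreated arrays. The endothelial Pecam1, Cdh5 and Kdr were so on 0, 3 and 1. The p53 target Ccng1 rose in each regimen, by 1.12 ± 0.16 after 2 Gy, 2.00 ± 0.19 after 10 Gy and 1.64 ± 0.16 after 5x2 Gy. Cdkn1a and Mdm2 rose after 10 Gy (2.598 ± 0.39 and 2.14 ± 0.29) and 5x2 Gy (1.27 ± 0.32 and 0.67 ± 0.24), and were at 0.88 ± 0.32 and 0.48 ± 0.24 after 2 Gy without passing the test. Unless stated otherwise, a value is a mean log2 ratio (irradiated over untreated) with its standard error from limma, and a gene was called at an adjusted p under 0.05.

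The tested histone genes comprised 4 of 6 H1, 10 of 12 H2A, 7 of 11 H2B, 3 of 3 H3 and 6 of 6 H4 symbols. In the mouse genome they lie in clusters: 21 belonged to the Hist1 cluster on chromosome 13, 5 to Hist2 on chromosome 3, 3 to Hist3 on chromosome 11 and 1 to Hist4 on chromosome 6. Many members of a type resemble each other in sequence. Of the 30 tested probes, 18 listed a single RefSeq gene, 10 listed 2 or more and 2 listed none, so a ratio can stand for several genes and is uncertain for the gene named. Probes of different symbols can also list the same gene. The H2B symbols tested include Hist3h2bb-ps, a pseudogene by its symbol, whose probe lists H2bu2, the current symbol of Hist3h2ba. The symbols not above background were Hist1h1e, Hist1h1t, Hist1h2ac, Hist1h2al, Hist1h2be, Hist1h2bp, Hist1h2bq and Hist2h2bb. In both channels of all 8 arrays, 23 of the tested genes were above background.

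**Figure D1:**
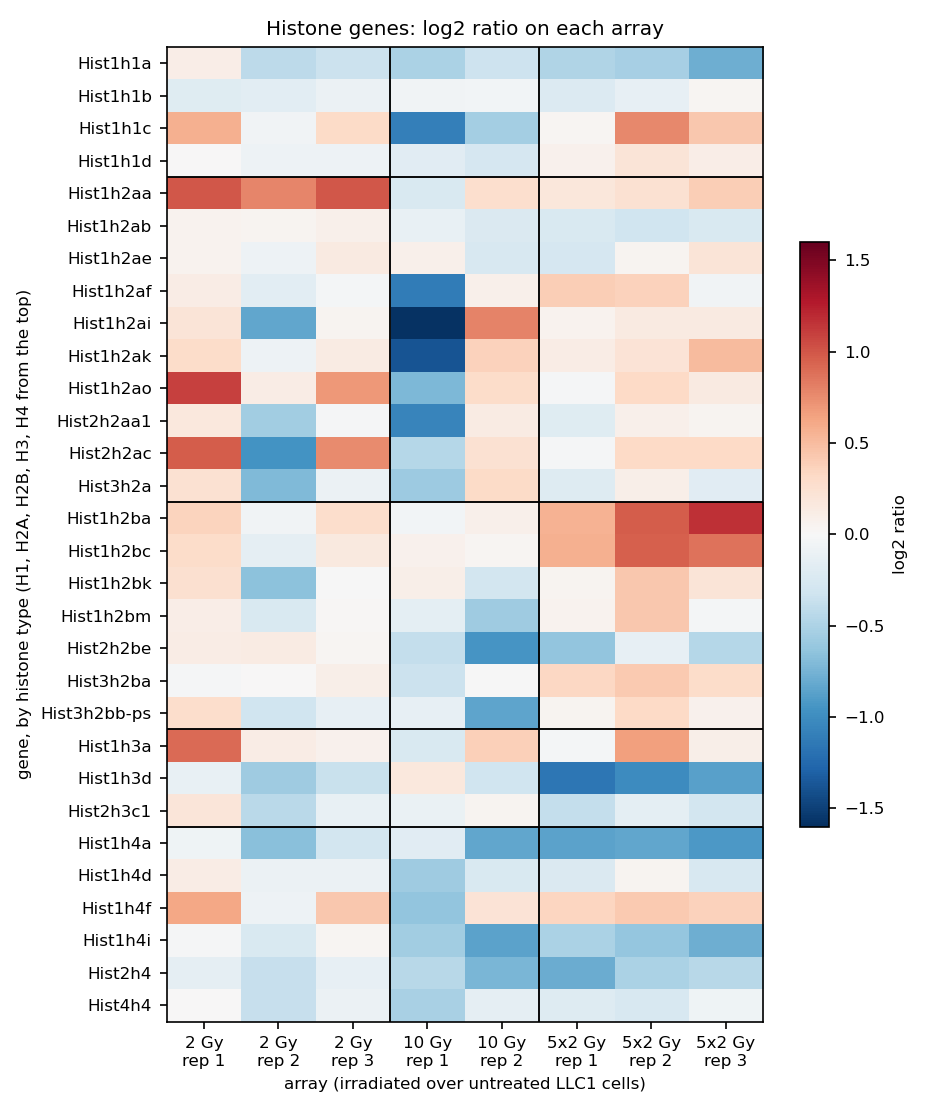
Log2 ratio of irradiated over untreated LLC1 cells for the 30 tested histone genes (rows, by type) on each of the 8 arrays (columns, by regimen). Red is higher and blue lower in irradiated cells, with the colour scale ending at 1.6 on either side. Hist1h2aa is high on the 3 arrays of 2 Gy, Hist1h2ba and Hist1h2bc on those of 5x2 Gy, and most H2A genes have opposite colours on the 10 Gy arrays.

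The share of histone genes called lay near or below that of all genes. After 2 Gy, 1 of 30 was higher (3.33%, against 8.99% of all genes tested) and none was lower (against 7.94%). After 10 Gy none was higher (against 12.4%) and 5 were lower (16.7%, against 15.8%). After 5x2 Gy, 3 were higher (10.0%, against 17.6%) and 7 lower (23.3%, against 23.4%). The median log2 ratio of the 30 genes was -0.04 after 2 Gy, -0.22 after 10 Gy and 0.12 after 5x2 Gy, beside -0.003, -0.06 and -0.02 for all genes. The median by array ran from -0.17 to 0.14 on the 2 Gy arrays, was -0.36 and -0.09 on the 10 Gy arrays, and ran from -0.02 to 0.18 on the 5x2 Gy arrays. Without passing the test, 29 genes after 2 Gy, 25 after 10 Gy and 20 after 5x2 Gy remained, which does not show that they did not change.

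The types are described by their medians, and no test compared them. The H4 genes, of the histone found in every nucleosome core beside H3, had a median of -0.12 after 2 Gy, -0.46 after 10 Gy with 3 of 6 lower, and -0.38 after 5x2 Gy with 3 of 6 lower. No H4 gene was called higher, though 1 was after 2 Gy with median centring, slide block, array weights or without either 10 Gy array, and 1 after 5x2 Gy with array weights, only the arrays compared or without either 10 Gy array. With slide block the H4 gene higher after 2 Gy was Hist1h4f (0.75, adjusted p = 0.0095). The H2B genes had medians of 0.03, -0.17 and 0.23, with 1 of 7 lower after 10 Gy, and 3 higher and 1 lower after 5x2 Gy. The H2A genes had medians of 0.05, -0.20 and 0.13, with 1 of 10 higher after 2 Gy and 1 lower after 5x2 Gy. The H1 genes, of the linker histone, had medians of -0.10, -0.33 and 0.01, with 1 of 4 lower after 10 Gy and 1 after 5x2 Gy. The 3 H3 genes had medians of -0.12, -0.03 and -0.27, with 1 lower after 5x2 Gy. With arrays centred on their median in place of the intensity-dependent loess curve, the medians of H2A were 0.51, 0.32 and 0.35 and those of H4 were 0.009, -0.36 and -0.35. The sign of the H2A median after 10 Gy turned with this scaling, as did those of H3 after 2 Gy (0.46) and 10 Gy (0.62) and that of H4 after 2 Gy, while that of H4 after 10 Gy and 5x2 Gy did not. With slide block the H2A median was 0.59 after 2 Gy, with 5 higher, and -0.36 after 5x2 Gy, with 3 lower, and with slide as a random block it was -0.22 after 5x2 Gy. Without 10 Gy replicate 1 the H2A median after 10 Gy was 0.26, and without replicate 2 it was -0.65. Counts called under these other settings are given without the share of all genes, so they describe the fits and not the histone types.

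**Figure D2:**
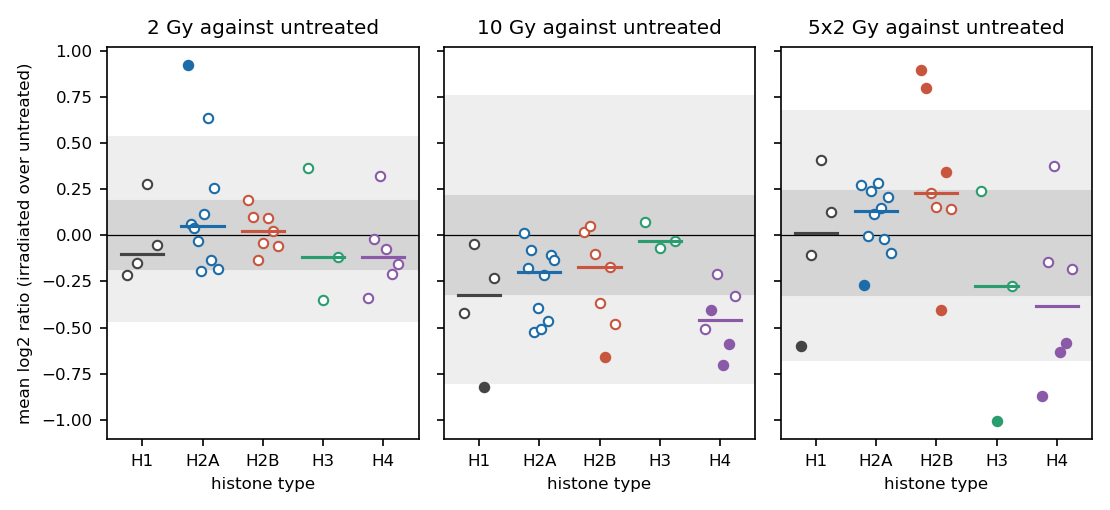
Mean log2 ratio of each tested histone gene (points; filled where the adjusted p was under 0.05) by type and regimen, with the type median as a bar. The dark band spans the 25th to 75th and the light band the 5th to 95th percentile of all 13409 genes; the medians of H4 lie at -0.46 after 10 Gy and -0.38 after 5x2 Gy.

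Promoters are shown for 4 genes called in a regimen, each of another type: Hist1h2aa after 2 Gy, Hist1h1c after 10 Gy, and Hist1h3d and Hist1h4a after 5x2 Gy. They are the 250 bases before the start of each gene on the gene's own strand, from RefSeq in the build GRCm38.p6, at chr13:23934187-23934436 (plus strand), chr13:23738557-23738806 (plus), chr13:23575513-23575762 (plus) and chr13:23761250-23761499 (minus). Capitals mark TATAAA as the first motif (a core promoter box), CCAAT as the second (bound by the factor NF-Y) and the octamer ATGCAAAT as the third (bound by Oct factors). They were searched on both strands, and no motif contains another.
Hist1h2aa: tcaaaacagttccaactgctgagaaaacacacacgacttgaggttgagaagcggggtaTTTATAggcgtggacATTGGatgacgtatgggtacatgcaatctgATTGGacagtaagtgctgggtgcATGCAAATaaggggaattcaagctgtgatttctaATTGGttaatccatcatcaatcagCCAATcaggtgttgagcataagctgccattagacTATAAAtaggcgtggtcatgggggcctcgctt
Hist1h3d: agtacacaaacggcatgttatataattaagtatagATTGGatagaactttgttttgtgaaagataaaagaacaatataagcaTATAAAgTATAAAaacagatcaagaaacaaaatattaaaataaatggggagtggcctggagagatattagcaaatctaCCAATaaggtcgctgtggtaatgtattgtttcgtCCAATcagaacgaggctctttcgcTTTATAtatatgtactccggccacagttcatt
Hist1h4a: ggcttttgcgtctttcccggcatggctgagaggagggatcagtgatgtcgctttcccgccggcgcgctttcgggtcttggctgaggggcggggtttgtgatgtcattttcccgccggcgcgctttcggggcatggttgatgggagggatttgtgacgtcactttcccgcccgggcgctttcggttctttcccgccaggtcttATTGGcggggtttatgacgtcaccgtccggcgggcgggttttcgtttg
Hist1h1c: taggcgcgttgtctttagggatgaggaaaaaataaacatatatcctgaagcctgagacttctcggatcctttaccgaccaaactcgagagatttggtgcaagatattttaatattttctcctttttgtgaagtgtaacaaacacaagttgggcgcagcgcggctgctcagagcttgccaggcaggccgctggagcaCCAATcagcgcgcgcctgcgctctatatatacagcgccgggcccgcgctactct
The Hist1h2aa promoter held 2 TATA boxes, 4 CCAAT boxes and 1 octamer, and that of Hist1h3d 3 TATA boxes and 3 CCAAT boxes. The promoters of Hist1h4a and Hist1h1c held 1 CCAAT box each. Promoter windows of 300 bases were found for 32 of the 38 symbols, 33 windows in all. Of these, 20 held a TATA box (60.6%, against 13.6% of the 32817 windows of all genes), 30 a CCAAT box (90.9%, against 37.4%) and 11 an octamer (33.3%, against 1.74%). The octamers lay in 6 of 11 H2A and 5 of 9 H2B windows and in none of 6 H1, 2 H3 and 5 H4 windows. The window of Hist1h2aa faces Hist1h2ba, whose start lies on the opposite strand 281 bases away, so the stretch shown lies between the starts of this pair. A match of letters is a description and not a measured site.

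After a single dose of 2 Gy 1 histone gene was called higher, Hist1h2aa (now H2ac1), an H2A gene known for its expression in testis. Its log2 ratios were 0.99, 0.79 and 0.99 on the 2 Gy arrays, -0.25 and 0.27 on the 10 Gy arrays and 0.18, 0.24 and 0.40 on the 5x2 Gy arrays. All 3 values after 2 Gy lay above the other 5. The mean was 0.92 ± 0.11 (1.90-fold, n = 3, adjusted p = 0.0019). With slide as a random block this call ended (adjusted p = 0.072). On 1 of these arrays, replicate 2, the irradiated spot was at the scanner's upper limit in its median pixel, so that ratio is a lower bound. Over all 8 arrays the irradiated signal of Hist1h2aa ran from 33959 to 49682 and the untreated signal from 12570 to 44945. The untreated signal thus varied more between arrays than the irradiated one. How signals near the limit shaped the ratios of Hist1h2aa was not tested. Hist1h2ba (H2bc1), its neighbour in the promoter shown, an H2B gene of testis, had 0.36, -0.05 and 0.28 on the same arrays, with a mean short of the threshold (0.19 ± 0.13, adjusted p = 0.32). With arrays centred on their median the values were 1.49 for Hist1h2aa and 0.52 for Hist1h2ba, and 8 histone genes were called higher and none lower. Such centring also moved the median of all genes after 2 Gy from -0.003 to 0.13. The count is given without the share of all genes, so it describes the fit and not the histone genes.

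Spots at the scanner's limit occurred on 5 of the 30 tested probes, 4 of them of H2A genes and the other of the H3 gene Hist2h3c1. With second probes included there were 15 such spots. For Hist1h2ao (H2ac23) the irradiated spot was at the limit on all 3 arrays of 2 Gy, so its log2 ratios of 1.09, 0.12 and 0.69 (mean 0.63 ± 0.21, adjusted p = 0.064) come from spots cut off at the top, and no fold is drawn from them. Both of its channels were at the limit on 10 Gy replicate 2. Hist1h2ak (H2ac15), with irradiated spots at the limit on 4 arrays, had 0.30, -0.08 and 0.13 after 2 Gy, -1.38 and 0.37 after 10 Gy and 0.12, 0.22 and 0.50 after 5x2 Gy. Hist2h2ac (H2ac20) had 0.96, -0.95 and 0.76 after 2 Gy, and both channels were at the limit on 10 Gy replicate 2. Hist2h3c1 (H3c14) had its untreated spot at the limit on 5x2 Gy replicate 1 and means of -0.12, -0.03 and -0.27 in the 3 regimens. None of these 4 genes was called in a regimen. With median centring Hist1h2ao (1.24, adjusted p = 0.002), Hist1h2ak (0.76, adjusted p = 0.010) and Hist2h3c1 (0.48, adjusted p = 0.043) were called higher after 2 Gy.

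For some H2A genes the second probe gave another answer, and probe values are adjusted here over the 21685 probes kept. Hist3h2a (H2aw) was at -0.18 ± 0.19 after 2 Gy on its tested, brighter probe, with 0.24, -0.71 and -0.09 by array. Its other probe had 1.02, 0.76 and 0.74 and passed the test (0.84 ± 0.12, adjusted p = 0.0035), and it stayed higher after 10 Gy (0.73 ± 0.15, adjusted p = 0.0075) and 5x2 Gy (0.47 ± 0.12, adjusted p = 0.014), where the brighter probe was at -0.14 and -0.10. Hist1h2af (H2ac10) was at -0.03 ± 0.19 after 2 Gy on the tested probe and at 0.66 ± 0.12 on the other (adjusted p = 0.0081), and these probes list 4 and 3 RefSeq genes. The second probe of Hist2h2ac was also higher after 2 Gy, with 0.86, 0.33 and 1.24 (0.81 ± 0.15, adjusted p = 0.0077). Thus second probes of 3 H2A genes were called higher after 2 Gy while the tested probes of these genes were not. After 5x2 Gy the second probes of Hist2h2ac (0.41 ± 0.15, adjusted p = 0.045) and of the H2B gene Hist1h2bk (0.45 ± 0.13, adjusted p = 0.019) were higher, where the tested probes were at 0.21 ± 0.30 and 0.23 ± 0.16 without passing the test. After 10 Gy the tested probe of Hist1h4d was called and the second (-0.34 ± 0.17, adjusted p = 0.16) was not. For the H4 gene Hist1h4d (H4c4) the second probe, which lists 1 gene, was lower after 5x2 Gy (-0.63 ± 0.14, adjusted p = 0.0059), where the tested probe, which lists 4, was at -0.15 ± 0.10 without passing the test.

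A single dose of 10 Gy lowered 5 histone genes: the linker histone Hist1h1c (H1f2), the H2B gene Hist2h2be (H2bc21), and the H4 genes Hist1h4i (H4c9), Hist2h4 (H4c14) and Hist1h4d. Hist1h1c had -1.09 and -0.55 on the 10 Gy arrays, against 0.57, -0.05 and 0.31 after 2 Gy and 0.03, 0.77 and 0.43 after 5x2 Gy. Its mean fell by 0.82 ± 0.20 (1.77-fold lower, n = 2, adjusted p = 0.016), and both 10 Gy values lay below the other 6. Hist1h4i, whose probe lists no current RefSeq gene, had -0.55 and -0.86 (-0.70 ± 0.13, adjusted p = 0.0037), and values from -0.24 to 0.03 after 2 Gy. Hist2h4 had -0.45 and -0.73 (-0.59 ± 0.13, adjusted p = 0.0092), and Hist2h2be -0.38 and -0.95 (-0.66 ± 0.16, adjusted p = 0.014). These 4 genes were negative on both 10 Gy arrays. The call of Hist1h1c ended without 10 Gy replicate 1 (-0.55, adjusted p = 0.092) and that of Hist2h2be without replicate 2 (-0.38, adjusted p = 0.079). With slide as a random block the call of Hist1h4i was the 1 of these 5 that was left. With array weights, or with only the arrays compared, none of the 5 calls was left, that of Hist1h4i included. Hist1h4d, with -0.56 and -0.24 (-0.40 ± 0.13, adjusted p = 0.042), lost its call without any 1 of the arrays except 10 Gy replicate 2. Among the types, the highest values after 10 Gy were those of Hist1h3a for H3 (0.07 ± 0.24), Hist1h2bc for H2B (0.05 ± 0.14), Hist1h2aa for H2A (0.01 ± 0.14), Hist1h1b for H1 (-0.05 ± 0.11) and Hist1h4f for H4 (-0.21 ± 0.20), none of which passed the test. Hist1h3a and Hist1h1b were not well above background in either channel of the 10 Gy arrays.

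**Figure D3:**
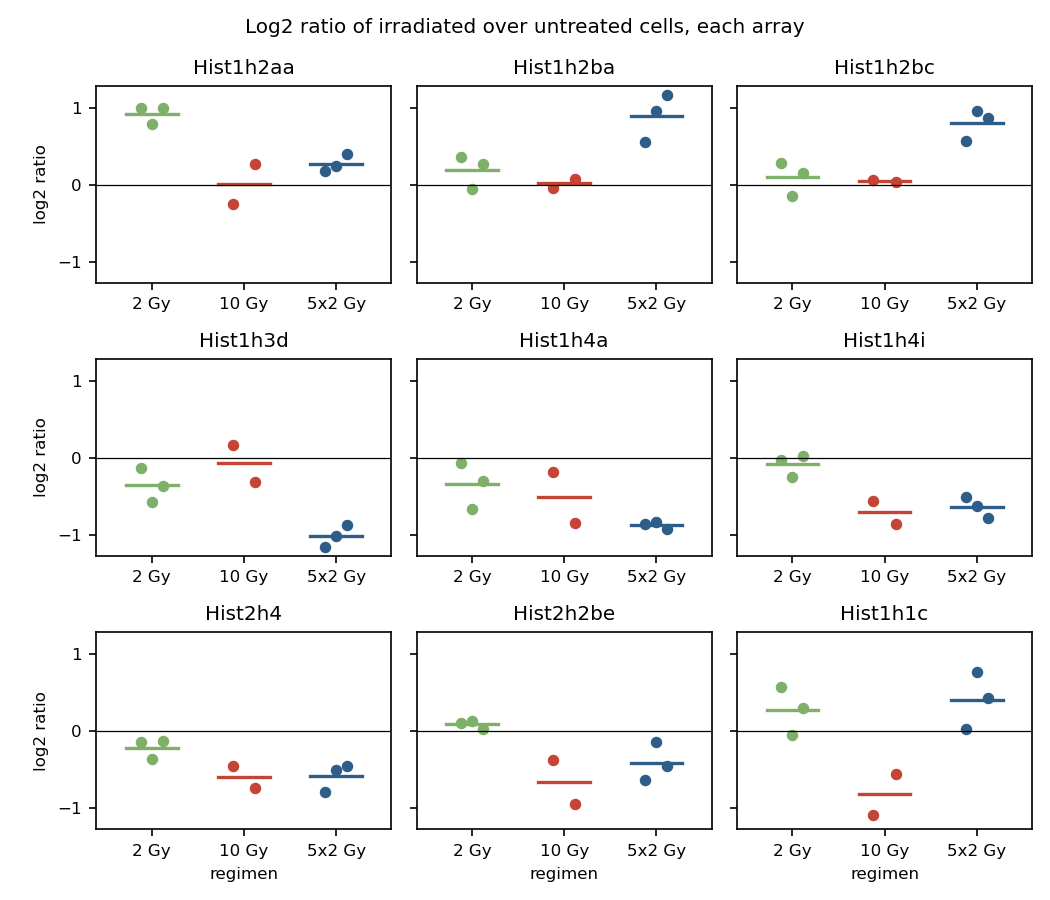
Log2 ratio of irradiated over untreated cells on each array (points) and the mean of a regimen (bars) for 9 histone genes. Hist1h2aa is high after 2 Gy, Hist1h2ba and Hist1h2bc after 5x2 Gy, Hist1h1c is low after 10 Gy, and Hist1h3d and Hist1h4a are lowest after 5x2 Gy.

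The 10 Gy arrays, which lay on different slides, did not give the histone genes the same ratios. Of the 30 genes, 14 were negative on both arrays, 1 was positive on both, 12 were negative on replicate 1 and positive on replicate 2, and 3 were the other way round. Of the 10 H2A genes, 8 were negative on replicate 1 and positive on replicate 2. Hist1h2ai (H2ac13) had -1.58 and 0.79, Hist1h2af -1.12 and 0.08, and Hist2h2aa1 (H2ac18) -1.06 and 0.14. The H2A medians lay apart on these arrays, at -0.65 and 0.26, while the H4 medians were -0.54 and -0.49. Across the 30 genes, which are not independent replicates, the arrays correlated at r = -0.38, and across all 13409 genes at r = 0.43. The SD of the ratios of all genes was 0.69 on replicate 1 and 0.46 on replicate 2. A fit without 1 of these arrays leaves a single array for 10 Gy, so the number of histone genes called in it says nothing about the histone genes. The part of the slide in this difference was not tested.

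**Figure D4:**
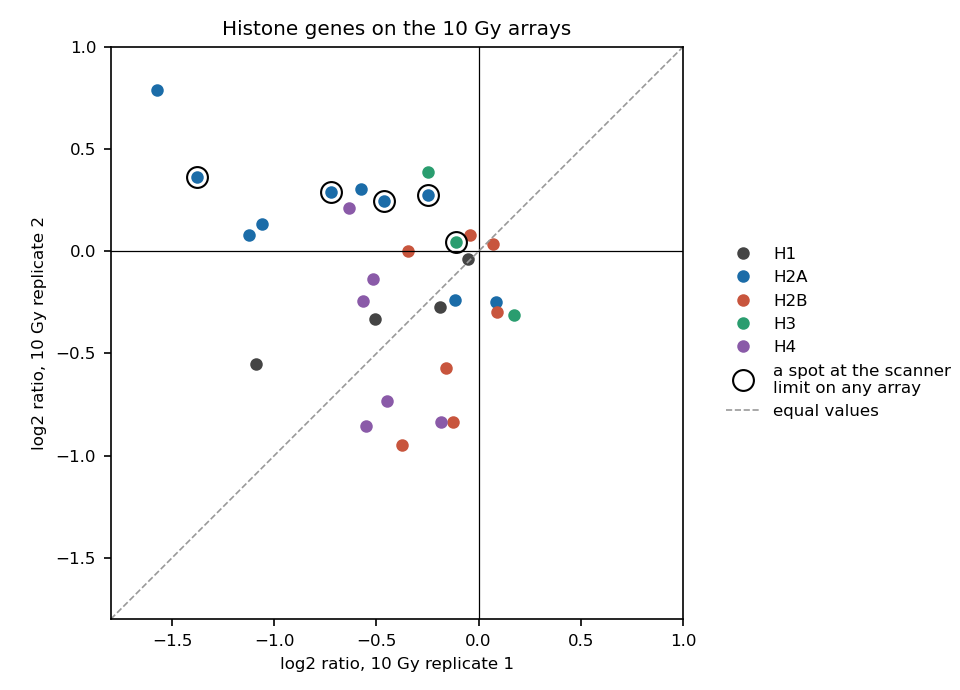
Log2 ratio of each tested histone gene on 10 Gy replicate 1 (horizontal) and replicate 2 (vertical), coloured by type; rings mark genes with a spot at the scanner's limit on any array. Of the 10 H2A genes 8 lie in the upper left, negative on replicate 1 and positive on replicate 2, while 5 of 6 H4 genes lie below 0 on both.

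After 5x2 Gy, 3 H2B genes were higher and 7 genes of all 5 types lower than in untreated cells. Hist1h2ba had 0.56, 0.96 and 1.17 on the 5x2 Gy arrays (0.90 ± 0.13, 1.86-fold, n = 3, adjusted p = 0.0009), above the range of -0.05 to 0.36 on the other 5. Hist1h2bc (H2bc4), an H2B gene of the Hist1 cluster, had 0.57, 0.95 and 0.87 (0.80 ± 0.11, 1.74-fold, adjusted p = 0.00085), above the range of -0.15 to 0.29 on the other arrays. The probe of Hist1h2bm lists H2bc4 among 4 genes and was at 0.15 ± 0.12 after 5x2 Gy without passing the test (adjusted p = 0.35). Hist3h2ba (H2bu2) had 0.33, 0.42 and 0.29 (0.35 ± 0.09, adjusted p = 0.017), and lost its call without any 1 of the 5x2 Gy arrays. The probe of Hist3h2bb-ps lists the same RefSeq gene, H2bu2, and was at 0.14 ± 0.15 after 5x2 Gy without passing the test (adjusted p = 0.48). For Hist1h2ba and Hist1h2bc the groups thus did not overlap. Hist1h2aa, whose start faces that of Hist1h2ba, was at 0.27 ± 0.11 after 5x2 Gy (adjusted p = 0.080).

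Among the genes lower after 5x2 Gy, Hist1h3d (H3c4), an H3 gene whose probe lists 4 RefSeq genes, had -1.15, -1.01 and -0.86. It fell by 1.01 ± 0.12 (2.01-fold lower, n = 3, adjusted p = 0.00047), while the other arrays ranged from -0.57 to 0.17. Hist1h4a (H4c1), an H4 gene whose probe lists 3, had -0.86, -0.83 and -0.92 (-0.87 ± 0.14, 1.83-fold lower, adjusted p = 0.0017). On the 10 Gy arrays it had -0.18 and -0.84, so the value of 10 Gy replicate 2 overlapped with those of 5x2 Gy. The probe of Hist1h4f also lists H4c1 and H4c3 and had 0.35, 0.42 and 0.37 after 5x2 Gy (0.38 ± 0.17, adjusted p = 0.098). That of Hist1h4d, which lists H4c1 too, was at -0.15 ± 0.11. The fall on the Hist1h4a probe thus cannot be assigned to H4c1. Hist1h4i had -0.51, -0.62 and -0.78 (-0.63 ± 0.10, adjusted p = 0.0016) and Hist2h4 had -0.79, -0.51 and -0.45 (-0.58 ± 0.11, adjusted p = 0.0026). Both of these H4 genes were thus called lower after 10 Gy and after 5x2 Gy. Hist2h2be, lower after 10 Gy, had -0.64, -0.13 and -0.45 (-0.41 ± 0.13, adjusted p = 0.030) and lost its call without 5x2 Gy replicate 1 or 3 or 2 Gy replicate 3. The H1 gene Hist1h1a (H1f1) and the H2A gene Hist1h2ab (H2ac4) were also called lower (adjusted p = 0.0039 and 0.026). The irradiated signal of Hist1h1a was not well above background on any 5x2 Gy array, and Hist1h2ab was not in either channel, so no fold is given. The call of Hist1h2ab ended without any 1 of the 5x2 Gy arrays.

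These 10 calls had limits. With slide as a random block (correlation of arrays on 1 slide 0.70) none of them was left, and with median centring 7 histone genes were higher and 7 lower after 5x2 Gy. After 10 Gy, median centring gave 2 higher, Hist1h2aa and Hist2h3c1, and 4 lower. These counts with median centring are given without the share of all genes, so they describe the fits and not the histone genes.

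Regimens were then compared with each other at the time sampled. The 5x2 Gy and 2 Gy arrays differ in total dose, number of fractions and slide, whose parts cannot be told apart. Between 10 Gy and 2 Gy, 1 of 30 histone genes was called, against 2.56% of all genes tested. Hist1h2aa was lower after 10 Gy than after 2 Gy by 0.91 ± 0.18 (95% interval of the difference -1.31 to -0.51, adjusted p = 0.040), with means of 0.01 and 0.92 and no overlap. Next came Hist1h1c (-1.10 ± 0.26, adjusted p = 0.061), Hist1h4i (-0.63 ± 0.16, adjusted p = 0.076) and Hist2h2be (-0.75 ± 0.20, adjusted p = 0.084), which did not pass the test. An unadjusted p under 0.05 was found for 7 histone genes, against 20.4% of all genes. The call of Hist1h2aa ended without any 1 of the 2 Gy or 5x2 Gy arrays.

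Between 5x2 Gy and 2 Gy limma called none of the 30 histone genes, against 1.31% of all genes, and 11 had an unadjusted p under 0.05, against 25.6% of all genes. The smallest p-values were those of Hist1h2bc (0.70 ± 0.16 higher after 5x2 Gy, 95% interval 0.34 to 1.06, adjusted p = 0.060), Hist1h2aa (-0.65 ± 0.16, -1.01 to -0.29, adjusted p = 0.064) and Hist1h2ba (0.70 ± 0.18, 0.30 to 1.11, adjusted p = 0.068). Between 5x2 Gy and 10 Gy, which share the total dose, limma called none of them, as it called 0% of all genes, and 9 had an unadjusted p under 0.05, against 16.7% of all genes. Here the smallest were those of Hist1h3d (-0.94 ± 0.20 lower after 5x2 Gy, 95% interval -1.37 to -0.50, adjusted p = 0.17), Hist1h1c (1.23 ± 0.26 higher, 0.64 to 1.82, adjusted p = 0.17) and Hist1h2ba (0.88 ± 0.20 higher, 0.42 to 1.33, adjusted p = 0.19). A moderated F test over the 3 regimens called none of the 30, against 1.48% of all genes. Its smallest adjusted p was 0.056, for Hist1h2aa. No other tool was run on these comparisons. None of these results shows that the regimens acted alike.

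Related genes were taken from 4 lists. For all of them, counts called under other settings are given without the share of all genes called there. Of 47 genes of S phase and DNA replication, 11 were lower after 2 Gy, 29 after 10 Gy and 24 after 5x2 Gy, with none higher and medians of -0.23, -0.55 and -0.36. Ccna2, the cyclin A2 of S phase, was at -2.38 ± 0.29 after 10 Gy (adjusted p = 0.00067), and Tyms, thymidylate synthase, at -0.99 ± 0.10 after 5x2 Gy (adjusted p = 0.00022). Mcm2, of the replicative helicase, was at -0.52 ± 0.10 after 2 Gy (adjusted p = 0.011). With median centring 5 of these genes were higher and none lower after 2 Gy, 2 were higher and 20 lower after 10 Gy, and none was higher and 21 lower after 5x2 Gy. With slide block 8 were higher and 2 lower after 2 Gy (median 0.03), so the direction after 2 Gy turned under both. Without either 10 Gy array in turn, 1 was higher and 26 lower after 2 Gy, and without 10 Gy replicate 1 the number lower after 10 Gy was 19. Between regimens, Ccna2 (-1.85 ± 0.37, adjusted p = 0.041), Pola2 and Prim1 were lower after 10 Gy than after 2 Gy, and Rfc3, a clamp loader subunit, was lower after 5x2 Gy than after 2 Gy (-0.66 ± 0.13, adjusted p = 0.049).

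Of 30 genes of histone message synthesis and 3′ end formation, 1 was higher and 5 lower after 2 Gy, 1 higher and 11 lower after 10 Gy, and 2 higher and 10 lower after 5x2 Gy. Slbp had -0.27, -0.11 and -0.28 after 2 Gy, -0.89 and -0.27 after 10 Gy and -0.29, -0.56 and -0.48 after 5x2 Gy. It fell after 10 Gy (-0.58 ± 0.15, adjusted p = 0.019) and 5x2 Gy (-0.44 ± 0.12, adjusted p = 0.017) and did not pass the test after 2 Gy (-0.22 ± 0.12, adjusted p = 0.24). Npat was at 0.02 ± 0.10 after 2 Gy (adjusted p = 0.89), -0.44 ± 0.13 after 10 Gy (adjusted p = 0.030) and -0.45 ± 0.10 after 5x2 Gy (adjusted p = 0.0077). Casp8ap2, a partner of Npat in histone locus bodies, was at -1.05 ± 0.21 after 10 Gy (adjusted p = 0.0059) and -1.03 ± 0.17 after 5x2 Gy (adjusted p = 0.0018). Eri1, the nuclease that trims the histone stem-loop, was at -0.93 ± 0.16 after 10 Gy (adjusted p = 0.0027). With median centring the list had 8 genes higher and 3 lower after 2 Gy and 4 higher and 6 lower after 10 Gy. With slide block 4 were higher and 3 lower after 2 Gy (median 0.10), and without 10 Gy replicate 1, 3 were higher and 3 lower after 10 Gy (median -0.09, against -0.285 with both arrays). Without replicate 2, 2 were higher and 19 lower after 10 Gy, and without either of these arrays in turn 3 were higher and 12 lower after 2 Gy.

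Of 33 histone chaperones and chromatin assembly genes, 1 was higher and 8 lower after 2 Gy, 14 were lower after 10 Gy, and 2 were higher and 12 lower after 5x2 Gy. Asf1a, which hands H3 and H4 to the assembly machinery, was at -0.84 ± 0.16 after 10 Gy (adjusted p = 0.0052) and -0.91 ± 0.13 after 5x2 Gy (adjusted p = 0.00097). Anp32e, a chaperone of the variant H2A.Z, was at -0.86 ± 0.11 and -0.95 ± 0.09 in these regimens (adjusted p = 0.00086 and 0.0002). Ipo7, an import receptor for H1, was at -1.27 ± 0.18 and -1.32 ± 0.15 (adjusted p = 0.0012 and 0.00035). Chaf1b, a subunit of chromatin assembly factor 1, was at -0.56 ± 0.09 after 2 Gy (adjusted p = 0.0038), where with median centring 9 genes of the list were higher and 2 lower; after 10 Gy 3 were higher and 8 lower. With slide block 6 were higher and 4 lower after 2 Gy (median 0.07), and without 10 Gy replicate 1 the number lower after 10 Gy was 8 (median -0.14, against -0.36 with both arrays). Without either 10 Gy array in turn, 2 were higher and 13 lower after 2 Gy. Atrx was lower after 5x2 Gy than after 2 Gy (-0.83 ± 0.14, adjusted p = 0.037).

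Of 12 replacement and variant histones, 3 were higher and 1 lower after 2 Gy, 4 lower after 10 Gy, and 1 higher and 5 lower after 5x2 Gy. H2aj, an H2A variant, had 1.10, 0.91 and 0.93 after 2 Gy (0.98 ± 0.10, adjusted p = 0.0013), -0.18 and 0.26 after 10 Gy and 0.34, 0.46 and 0.33 after 5x2 Gy. Cenpa, the H3 variant of centromeres, rose after 2 Gy (0.47 ± 0.12, adjusted p = 0.025) and fell after 10 Gy (-0.85 ± 0.14, adjusted p = 0.0027). H3f3b, which encodes the replacement histone H3.3, fell after 5x2 Gy (-0.86 ± 0.12, adjusted p = 0.00084). H1f0, the linker histone of resting cells, fell after 10 Gy (-0.69 ± 0.17, adjusted p = 0.014), with -1.06 and -0.33 on these arrays. H2ax, the variant that is phosphorylated at DNA breaks, was at 0.57 ± 0.20 after 2 Gy, -0.42 ± 0.24 after 10 Gy and 0.40 ± 0.20 after 5x2 Gy and passed the test in none. Cenpa, H2aj and Macroh2a1 were lower after 10 Gy than after 2 Gy (adjusted p = 0.022, 0.031 and 0.044). With median centring 8 of the 12 were higher and 1 lower after 2 Gy, and 3 were higher and 2 lower after 10 Gy. With slide block 4 were higher and 2 lower after 2 Gy, 1 higher and 7 lower after 10 Gy, and none higher and 3 lower after 5x2 Gy.

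**Figure D5:**
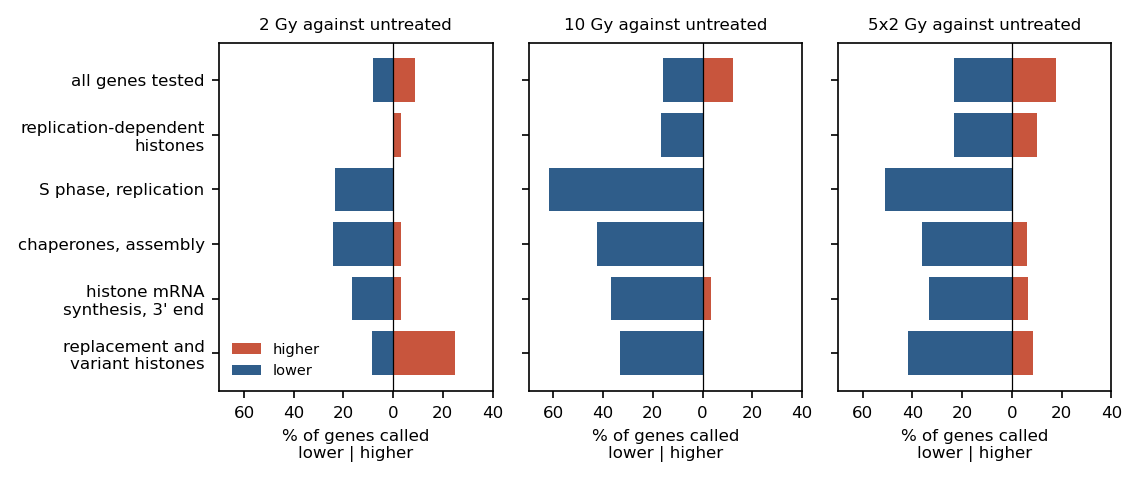
Percentage of genes called higher (right of 0) and lower (left of 0) against untreated cells, for all genes tested, the 30 replication-dependent histone genes and the 4 related lists. The histone bars are close to or shorter than those of all genes, while 29 of 47 S phase genes were lower after 10 Gy.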

How the data were processed

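RNA of LLC1 cells was profiled on 8 dual-colour arrays. Per the file headers, the deposited scanner output was quantified with ImaGene 9.0 and gives the intensity of a spot as mean and median pixel signal, without background correction, log or normalization. A deposited table of log2 values by probe was compared with Cy5 over Cy3 ratios of those signals, and its columns gave r of 0.998 to 1.000 and medians from -0.005 to 0.009, which settled scale and direction. Further steps of the authors are not given in the sources used here. Of 10 Gy, replicate 3 was not analysed here, and the labels used do not give the spacing of fractions.

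Mean signals were corrected with normexp (offset 50) and loess-normalized within arrays in limma 3.58.1 (R 4.3.3). A probe was kept if it exceeded the median of 153 negative controls by 2.6 robust SD in at least 1 channel on 2 arrays (21685 of 41174 probes). Per symbol the brightest kept probe was tested. Array symbols were kept for the histone genes, and other symbols were updated through RefSeq accessions (27907 probes matched, 1587 symbols changed). One mean per regimen was fitted to all 8 arrays with eBayes, so the spread is shared between regimens, with Benjamini-Hochberg adjustment over 13409 genes. The SE and p of the 10 Gy arrays thus borrow the spread of the other regimens. The labels call the arrays biological replicates, and p-values measure the spread between these arrays, whose number limits the precision. Dye effects specific to a gene are part of each comparison with untreated cells, since no dyes were exchanged.

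Members and lists were chosen with earlier results of these data known. Each list counts a gene once; older and current symbols of 1 gene were merged. Named were, per comparison, the 4 called members with the largest fold in each direction or else the 3 with the smallest p, the highest and lowest of a type after 10 Gy, members with a spot at the scanner's limit or with probes that disagree in sign, and up to 3 genes of a list with the smallest p, besides Slbp, Npat, H1f0, H2ax, Cdkn1a, Mdm2 and Ccng1; the text gives only some of the list genes. The other called members, Hist1h2ai and Hist2h2aa1 were named after their values were seen. The test was checked on simulated data, whose outcome is not given here and is not used as support for any call. Arrays on 1 slide correlated at 0.70 in the measured data, and how the test behaves under such a correlation was not tested. Promoters came from the RefSeq table of GRCm38.p6 (250 bases before to 50 after each start). Alternatives varied the background correction, scaling, filter, probe rule, saturated spots, slide, replicate number, weights and arrays fitted.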

Additional observations from a re-analysis of the deposited data

Results flagged for a closer look

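Between 10 Gy and 2 Gy, the effect of irradiation on 1 histone gene differed by limma's test of the difference itself. Hist1h2aa had a log2 difference of -0.91, with means of 0.92 after 2 Gy and 0.01 after 10 Gy (adjusted p = 0.040, over alternatives from 0.00029 to 0.33). The lowest p came from fits in which 10 Gy is represented by a single array beside the 2 Gy arrays of slide 1 (difference -1.17), whose spread is taken from the other groups, so that p supports nothing about 10 Gy. The 10 Gy mean of this gene averages -0.25 and 0.27, and with median centring it was 0.69. Its untreated signal varied more between arrays than its irradiated signal, which lay in the range of bright spots, and the part of this in the difference was not tested. H2aj, an H2A gene whose symbol is outside the rule used here, had a like difference of -0.94 ± 0.16 (adjusted p = 0.031) in the same arrays.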

How the results depend on the processing

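The 17 calls of single histone genes kept their direction under every alternative run, and 10 of the 16 calls against untreated cells, among them those of Hist1h2aa, Hist1h2ba, Hist1h2bc, Hist1h3d, Hist1h4a and Hist1h4i, held without any 1 array. The kept directions add little support. Each gene called against untreated cells had the same sign on all arrays of its regimen, so leaving out 1 array could not turn it. Several alternatives also refit the same ratios. Hist1h1a, Hist1h2ab and Hist3h2ba gave no value with the filter on both channels of all arrays. The number of histone genes called moved more. The counts that follow are given without the share of all genes called under the same setting, so they describe the fits and not the histone genes. Fits without 1 of the 10 Gy arrays leave a single array for 10 Gy. After 2 Gy, 1 was called; the count was 8 with median centring, 4 with scaling between arrays, 2 with the series matrix values, 2 with the median pixel signal, 8 with slide block, 0 with slide as a random block, 10 with array weights, 3 with only the arrays compared, and 1 to 5 without 1 array (5 without either 10 Gy array, 2 without 2 Gy replicate 2). After 10 Gy, 5 were called; the count was 14 with slide block, 1 with slide as a random block, 0 with array weights, 0 with only the arrays compared, and 4 to 13 without 1 array (13 without 10 Gy replicate 2). After 5x2 Gy, 10 were called; the count was 0 with slide as a random block, 16 with array weights and 7 to 15 without 1 array. For 10 Gy against 2 Gy, 1 was called; the count was 4 with median centring, 2 with saturated spots left out, 10 with slide block, 7 with slide as a random block, 0 with array weights, 0 with only the arrays compared, and 0 to 10 without 1 array (10 without 10 Gy replicate 2, 4 without 10 Gy replicate 1, 0 without any other array). For 5x2 Gy against 2 Gy, 0 were called; the count was 2 with median centring, 1 with scaling between arrays, 6 with slide block, 1 with slide as a random block, 12 with array weights, 10 with only the arrays compared, and 0 to 10 without 1 array (10 without either 10 Gy array). For 5x2 Gy against 10 Gy, 0 were called, and 0 to 13 without 1 array (13 without 10 Gy replicate 2). The cause of these moves was not tested; array weights were lowest, 0.19, for both 10 Gy arrays, and slide blocks take their slide term from the difference between these 2 arrays alone. The median of the histone genes after 2 Gy was 0.26 with median centring, which moved the median of all genes from -0.003 to 0.13. After 5x2 Gy the median was -0.0021 with no filter on dim probes, -0.18 with slide block and -0.19 with slide as a random block. The replicate numbers are not taken as pairs: deviations of same-numbered arrays correlated at -0.24 to 0.12. With the replicate block, 2 histone genes were called after 10 Gy and 0 for 10 Gy against 2 Gy. Saturated spots limit the ratios of 5 tested genes, and dim signals those of genes not above background on all arrays.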

Other observations

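H2aj and Hist1h2aa had near values on each array. On 2 Gy replicates 1, 2 and 3 H2aj had 1.10, 0.91 and 0.93 and Hist1h2aa 0.99, 0.79 and 0.99. On the 10 Gy arrays H2aj had -0.18 and 0.26 and Hist1h2aa -0.25 and 0.27. The pair was set side by side after its values were seen.

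Hist1h3a (H3c1) had a log2 ratio of 0.91 on 2 Gy replicate 1 and 0.12 and 0.06 on the other 2 Gy arrays. On that first array the mean pixel signal was 5.18 times the median in the untreated and 14.9 times the median in the irradiated channel.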
